A study of Mus musculus with 6 samples.

Results

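The genes described here encode 10 receptors and ligands grouped as checkpoints of T cells and brakes on microglia. Whether each acts as a brake in these mice was not tested. They were taken by symbol (Cd274, Pdcd1, Havcr2, Lag3, Vsir, Sirpa, Cd47, Cd200, Cd200r1 and Cd33), and all 10 were found among the 25755 genes of the table. Their RNA was measured in bulk optic nerve tissue. All mice were NF1flox/flox;hGFAP-Cre: 3 had undergone sham surgery (mice 1, 2 and 3) and 3 optic nerve crush (ON-CR; mice 4, 5 and 6). Sham surgery was an incision without compression of the nerve, surgery was done at 6 weeks of age, and nerves were analysed at 3 months. The paper reports that optic gliomas had formed in ON-CR nerves of this genotype by that age. The hGFAP-Cre transgene deletes Nf1 from neuroglial progenitors and the cells they give rise to. Both groups carry this deletion, so no comparison with wild-type nerves was made.

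Checkpoint receptors dampen a cell when they meet their ligand on a neighbouring cell. On T cells, PD-1, TIM-3, LAG-3 and VISTA limit activation after antigen contact, and PD-L1 is the ligand through which many cell types engage PD-1. Microglia, the resident macrophages of the central nervous system, carry brakes of their own. SIRPα binds CD47, a signal that inhibits phagocytosis, and CD200R1 binds CD200, which neurons and other cells display. CD33 is a sialic acid-binding lectin of the Siglec family on myeloid cells.

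Values are the authors' normalized read numbers per gene, in which 1 read was worth 0.885 to 1.06. The libraries held between 17414091 and 23621006 estimated reads, and each of the 3 ON-CR libraries was shallower than each sham library. A gene was called when its adjusted p was at or under 0.05 with limma on log2(value + 1), adjusted by the Benjamini-Hochberg method over all 25755 genes. By that rule 0.971% of all genes rose and 1.13% fell. All ON-CR values lay above all sham values for 10.5% of genes, and below them for 11.0%. Libraries also differed in ways the surgery labels do not state. Xist, the RNA that silences an X chromosome in females, had values of 2.14 to 30.9 in sham mice, against 2708, 6357 and 6131 in ON-CR mice. Ddx3y, a gene of the Y chromosome, had values of 1291 to 1645 in sham mice, against 976, 4.19 and 0 in ON-CR mice 4, 5 and 6. ON-CR mouse 4 alone thus combined a high Xist value (2708) with a high Ddx3y value (976), and the reason was not tested. Sex-linked RNA thus moved with the groups, and its part in the differences described here cannot be told apart from that of the crush. The labels number the mice and say nothing of litters or batches. For its qPCR the paper used more than 1 mouse per sample, and its sequencing methods do not say whether mice were pooled. ON-CR mouse 6 had a summed value of 14957 over 7 B and plasma cell markers, against 345 to 1079 in the other mice, and the plasma cell gene Jchain made up 12738 of it. ON-CR mouse 5 had a summed value of 13777 over 7 neuron markers, against 3092 to 6943.

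None of the 10 genes was called with all 6 mice. A missing call does not show that a gene was unchanged. In simulated data with the means and spreads of this table, the same fit recovered 76 of 200 genes changed 2-fold. At 4-fold it recovered 177 of 200. The changed genes were drawn from those with a mean value of at least 50. An unadjusted p under 0.05 was reached by 6 of the 10 members, all higher after ON-CR. Over all 25755 genes this held for 15.6% in either direction (4016 genes), of which 1898 were higher. All ON-CR values exceeded all sham values for 5 of 10 (Cd274, Pdcd1, Havcr2, Lag3 and Sirpa), against the 10.5% of all genes given above. The fitted log2 fold change was positive for 9 of 10, against 13608 of all 25755 genes. Its median was 0.77, against 0.03 over all genes. The members were chosen with earlier results of these data known, so these contrasts are descriptions only. The ON-CR mice differed among themselves. Mouse 5 had the lowest ON-CR value for 7 of 10 genes, and mouse 6 the highest for 7 of 10. Without ON-CR mouse 5, limma called 4 of 10 genes (Cd274, Pdcd1, Havcr2 and Cd33), and the number of genes called in the whole table went from 540 to 854.

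**Figure D1:**
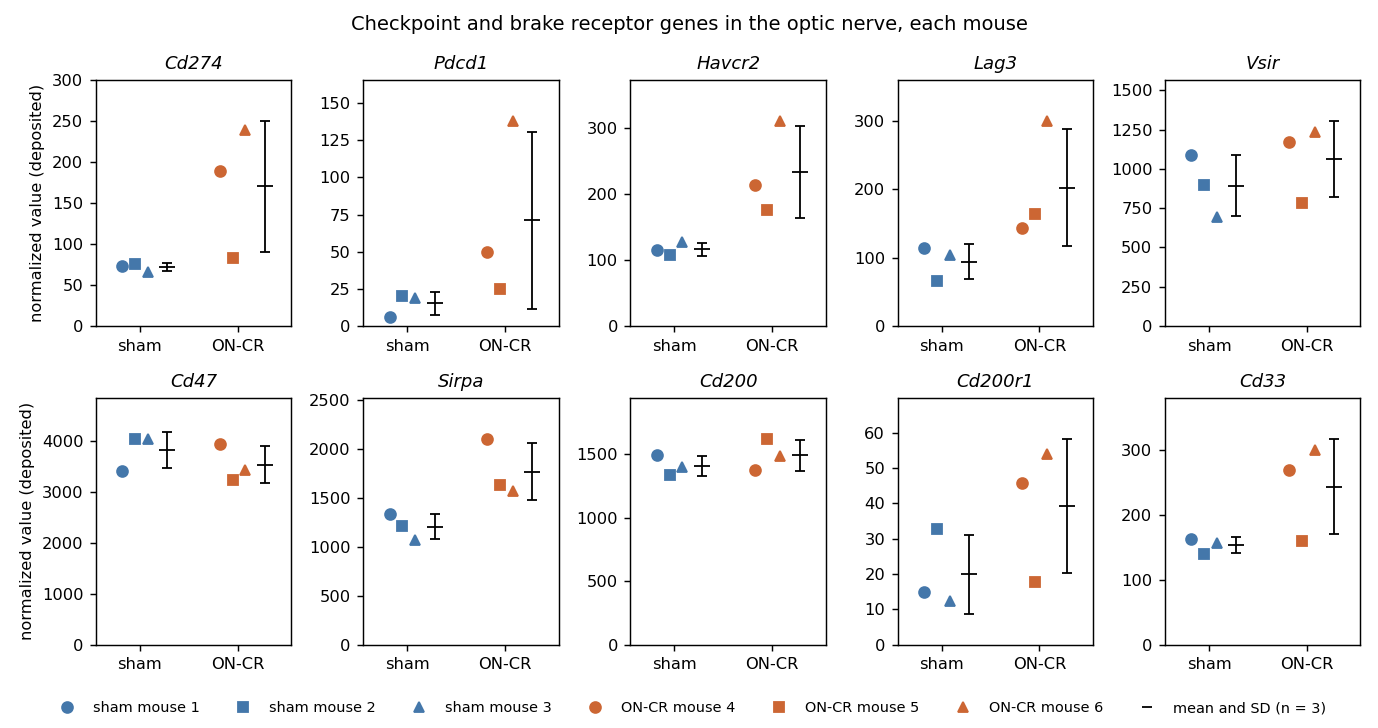
Normalized values of the 10 genes (linear axes from 0) in each sham mouse (blue) and each ON-CR mouse (orange), with the mean and SD of each group of 3 in black. The groups do not overlap for Cd274, Pdcd1, Havcr2, Lag3 and Sirpa, and ON-CR mouse 5 (orange square) is the lowest ON-CR mouse in 7 of 10 panels.

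Promoter sequences are shown for Cd274 and Havcr2, the genes among the 10 in which a searched motif was found. They run from 250 bases before to 50 bases after the gene start in RefSeq (GRCm38.p6), and 7 of 10 genes had an entry. Pdcd1, Vsir, Cd47, Cd200 and Cd33 had an entry without a match, and Lag3, Sirpa and Cd200r1 were not matched. For Cd47 and Cd33 the RefSeq start that was searched lies inside the GENCODE gene span given for them below, so the window before the outermost start was not searched. The motifs given here were searched on both strands as GAAANNGAA (the ISRE core of interferon-response elements), GAGGAAGT (PU.1, the myeloid lineage factor), TGANTCA (AP-1) and GGGANTTTC (a kappaB core). Capitals mark matches, which do not overlap each other. The Cd274 promoter (chr19:29367188-29367487, plus strand) has 1 ISRE core match, read on the opposite strand and beginning at position -76 from the gene start. The Havcr2 promoter (chr11:46454681-46454980, plus strand) has an AP-1 match at -200 and a PU.1 match at -8.
Cd274: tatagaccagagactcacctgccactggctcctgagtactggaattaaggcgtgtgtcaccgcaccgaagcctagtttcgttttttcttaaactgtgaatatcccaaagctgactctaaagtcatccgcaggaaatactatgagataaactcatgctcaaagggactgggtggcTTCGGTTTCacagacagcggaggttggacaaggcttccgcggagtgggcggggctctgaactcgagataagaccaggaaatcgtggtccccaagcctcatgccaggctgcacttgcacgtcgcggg
Havcr2: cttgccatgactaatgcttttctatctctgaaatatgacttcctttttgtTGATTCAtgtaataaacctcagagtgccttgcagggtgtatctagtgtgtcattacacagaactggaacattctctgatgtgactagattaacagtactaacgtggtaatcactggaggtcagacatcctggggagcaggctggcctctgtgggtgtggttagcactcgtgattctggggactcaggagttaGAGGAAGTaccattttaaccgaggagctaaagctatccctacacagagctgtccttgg
Of 32851 mouse promoters of this length, 8.56% held the ISRE core, 7.81% AP-1, 3.2% PU.1 and 1.11% the kappaB core. A match is a description of letters and no evidence that a factor was bound.

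Cd274 encodes PD-L1, the ligand of PD-1. Sham mice 1, 2 and 3 had values of 73.1, 75.2 and 66.1, whereas those of ON-CR mice 4, 5 and 6 were 188, 82.7 and 239. The groups did not overlap, but mouse 5 lay just above the highest sham mouse, at 1.16 times the sham mean. Means were 71.5 ± 4.78 in sham and 170 ± 80.0 after ON-CR (SD, n = 3 each), 2.38 times the sham mean. The log2 fold change was 1.11 (SE 0.35, 95% interval 0.33 to 1.89), with an adjusted p of 0.152 by limma. Without ON-CR mouse 5 it was 1.56 (adjusted p = 0.00536), and without mouse 6 it was 0.80 (adjusted p = 0.441, limma). Over the 6 fits with a mouse left out, the call without mouse 5 was the only one. The gene lies at chr19:29367455-29388095 on the plus strand (GRCm38, GENCODE M21). It shares 511 exonic bases with an antisense gene, and the library kit does not mark strand, so reads of that stretch cannot be assigned to either gene.

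Pdcd1 encodes PD-1 itself, the receptor that T cells acquire on activation. Its values were 6.37, 20.4 and 18.8 in sham mice, against 49.9, 25.2 and 138 in ON-CR mice, which is about 6, 23 and 20 reads against 50, 24 and 133. Each ON-CR mouse exceeded each sham mouse, mouse 5 only narrowly. The mean went from 15.2 ± 7.67 to 71.0 ± 59.4, the widest relative spread of the 10 genes after ON-CR (SD 83.6% of the mean). The log2 fold change was 1.96 (SE 0.63, interval 0.57 to 3.36; adjusted p = 0.158, limma). Without ON-CR mouse 5 it was 2.53 (adjusted p = 0.0423), without mouse 6 it was 1.32 (adjusted p = 0.454), and without sham mouse 1 it was 1.47 (adjusted p = 0.389, limma). Pdcd1 spans chr1:94038305-94052553 on the minus strand.

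Havcr2 encodes TIM-3, an inhibitory receptor of T cells that microglia and other myeloid cells also carry. Values were 116, 107 and 127 in sham mice, against 213, 176 and 312 in ON-CR mice. Here mouse 5 was also lowest, but all ON-CR mice stood well clear of the sham mice, at 1.51 to 2.67 times the sham mean. Means were 117 ± 9.86 and 234 ± 69.9. The log2 fold change was 0.96 (SE 0.23, interval 0.45 to 1.47), and its adjusted p of 0.0647 by limma was the lowest of the 10. Over the 14 alternative settings it ranged from 0.73 to 1.14, and limma called it in 4: with every library scaled to the same total, with array quality weights, with a robust fit, and with mouse 5 left out. Its adjusted p in these fits was 0.0429, 0.0331, 0.0438 and 0.0221, in that order. Havcr2 lies at chr11:46454935-46481255 on the plus strand.

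Lag3 encodes LAG-3, which binds MHC class II molecules and restrains T cells. Its values were 114, 65.5 and 103 in sham mice, against 144, 164 and 300.1 in ON-CR mice. The groups did not overlap, and mouse 4, not mouse 5, was the lowest ON-CR mouse, as it also was for Cd200. Means were 94.1 ± 25.3 and 202 ± 85.2, and the log2 fold change was 1.06 (SE 0.31, interval 0.37 to 1.75; adjusted p = 0.125, limma). No setting gave a call, and the adjusted p ranged from 0.0858 to 0.411. The gene spans chr6:124904361-124911705 on the minus strand.

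Vsir encodes VISTA, a checkpoint protein abundant on myeloid cells. Values were 1087, 895 and 697 in sham mice, against 1174, 785 and 1233 in ON-CR mice. The groups overlapped, with mouse 5 below sham mice 1 and 2. Means were 893 ± 195 and 1064 ± 243. The log2 fold change was 0.25 (SE 0.20), and its interval reached from -0.21 to 0.70 (adjusted p = 0.613, limma). Vsir lies at chr10:60346851-60372684 on the plus strand, inside Cdh23 on the opposite strand, with which it shares no exonic bases.

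The phagocytosis brake was measured through both partners. Cd47, the signal displayed by the cell that is spared, had values of 3416, 4028 and 4031 in sham mice, against 3935, 3225 and 3437 in ON-CR mice. These overlapped, with means of 3825 ± 354 and 3532 ± 365 and a log2 fold change of -0.12 (SE 0.12, interval -0.38 to 0.15; adjusted p = 0.702, limma). With all libraries scaled to one total its sign turned, to 0.013. Sirpa, the receptor on the phagocyte, had values of 1338, 1211 and 1074 in sham mice, against 2101, 1635 and 1576 in ON-CR mice. Each ON-CR mouse exceeded each sham mouse, and here mouse 4, not mouse 6, was highest. Means were 1208 ± 132 and 1771 ± 287. The log2 fold change was 0.55 (SE 0.14, interval 0.23 to 0.86; adjusted p = 0.0868, limma). Limma called Sirpa under 1 of 14 alternatives, equal library totals, with an adjusted p of 0.0289. On the log2 scale, Sirpa minus Cd47 was -1.35, -1.73 and -1.91 in sham mice, against -0.91, -0.98 and -1.12 in ON-CR mice. All ON-CR differences exceeded all sham differences, by 0.66 on average, which gave p = 0.1 in an exact two-sided permutation test, the smallest that 3 against 3 mice allow. The same difference overlapped between the groups for Cd200r1 minus Cd200 (0.84, p = 0.2) and Pdcd1 minus Cd274 (0.85, p = 0.3, exact permutation tests). These 3 receptor to ligand comparisons were chosen after the values were seen. Cd47 spans chr16:49800533-49915010 and Sirpa chr2:129592835-129632228, both on the plus strand.

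Cd200 and its receptor formed the other pair. Cd200, which neurons express, had values of 1492, 1337 and 1401 in sham mice, against 1375, 1619 and 1489 in ON-CR mice. The log2 fold change was 0.08 (SE 0.11, interval -0.17 to 0.33; adjusted p = 0.787, limma), from means of 1410 ± 77.9 and 1494 ± 122. Its highest value was in ON-CR mouse 5, the mouse with the highest neuron marker sum; the part of neuronal RNA in this value was not tested. Cd200r1, the myeloid receptor, was the lowest of the 10 genes per kilobase of exon in both groups. It had values of 14.9, 32.8 and 12.2 in sham mice, against 45.9, 17.8 and 54.0 in ON-CR mice, or about 14, 37 and 13 reads against 46, 17 and 52. Mice 4 and 6 exceeded all sham mice, and mouse 5 lay below sham mouse 2. Means were 19.9 ± 11.2 and 39.2 ± 19.0, and the log2 fold change of 0.93 (SE 0.52, interval -0.23 to 2.08) had an adjusted p of 0.43 by limma. Cd200r1 has close relatives in Cd200r3 (values of 0 to 11.0) and Cd200r4 (4.24 to 44.9). Those of Sirpa are Sirpb1a, Sirpb1b and Sirpb1c (8.01 to 44.6). How reads shared among such relatives were assigned was not tested. Cd200 lies at chr16:45382135-45409053 on the minus strand, and Cd200r1 at chr16:44765736-44794978 on the plus strand.

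Cd33 had values of 163, 140 and 156 in sham mice, against 269, 160 and 300.1 in ON-CR mice. Mice 4 and 6 stood above the sham range, and mouse 5 was within it. Means were 153 ± 12.02 and 243 ± 73.4, with a log2 fold change of 0.62 (SE 0.24, interval 0.09 to 1.15; adjusted p = 0.242, limma). Without ON-CR mouse 5 it was 0.89 (adjusted p = 0.0289), without mouse 6 it was 0.44 (adjusted p = 0.539), and without mouse 4 it was 0.52 (adjusted p = 0.429, limma). Cd33 spans chr7:43524216-43544428 on the minus strand.

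**Figure D2:**
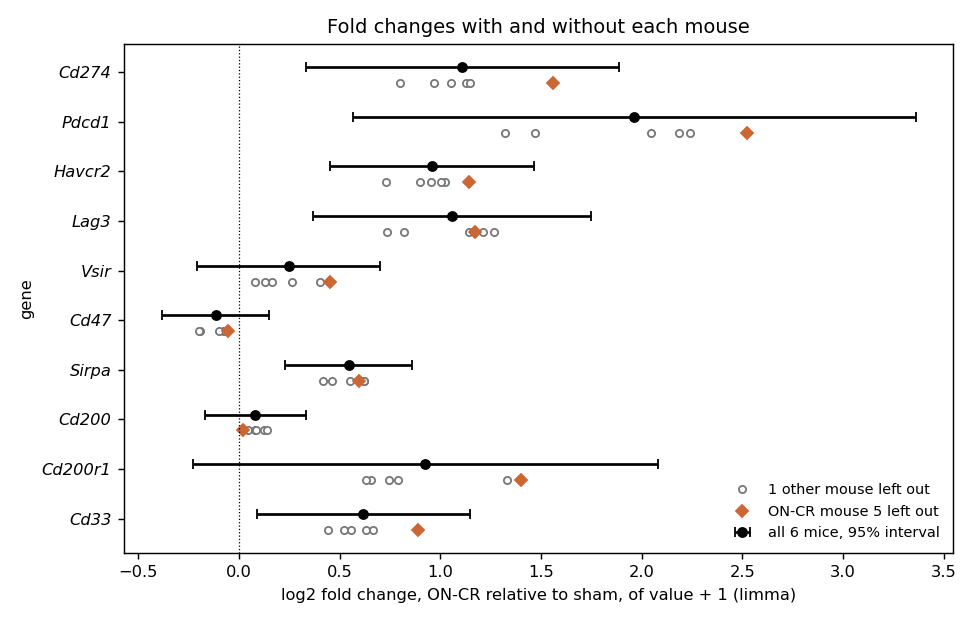
Log2 fold change of value + 1 (ON-CR relative to sham, limma) for each gene with its 95% interval over all 6 mice (black), and the estimates with 1 mouse left out (open circles, and orange diamonds for ON-CR mouse 5). The diamond is the highest estimate for Cd274, Pdcd1, Havcr2, Vsir, Cd47, Cd33 and Cd200r1, and the intervals of Vsir, Cd47, Cd200 and Cd200r1 include 0.

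Per kilobase of exon the genes spanned a wide range of levels. In sham nerves the order was Cd47 (609 ± 56.4), Cd200 (425 ± 23.5), Sirpa (246 ± 26.9), Vsir (178 ± 38.9), Lag3 (44.6 ± 11.99), Havcr2 (42.8 ± 3.62), Cd274 (19.7 ± 1.32), Cd33 (19.7 ± 1.55), Pdcd1 (7.86 ± 3.97) and Cd200r1 (5.96 ± 3.34). The ranges over the 3 sham mice overlapped between Lag3 and Havcr2, between Cd274 and Cd33, and between Pdcd1 and Cd200r1, but not between other neighbours. The ligands Cd47 and Cd200 were thus above their receptors in every mouse. After ON-CR Cd47 (563 ± 58.1) was again first and Cd200r1 (11.7 ± 5.67) last. Cd274 (47.0 ± 22.1) and Pdcd1 (36.8 ± 30.8) then stood before Cd33 (31.3 ± 9.44), although these 3 overlapped.

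Bulk RNA does not separate fewer or more cells of a type from less or more RNA per cell, so the members were set beside markers of the cells that carry them. Of 10 pan-myeloid markers, limma called 5 as higher after ON-CR (median log2 fold change 0.94), a count that was 8 without ON-CR mouse 5 and 1 or 2 without any other mouse. Their summed values were 11398 to 13935 in sham mice, against 24671, 16126 and 26382 in ON-CR mice 4, 5 and 6, so mouse 5 was lowest here too. Of 10 homeostatic microglia markers 0 were called (median 0.34), while 3 had an unadjusted p under 0.05. Without ON-CR mouse 5, 3 of them were called, and without sham mouse 1, 1 was. Of 10 activated microglia markers 8 rose (median 2.41), and 6 to 8 were called with 1 mouse left out. The activated list shares Trem2, Lgals3 and Axl with the partner lists below, and the homeostatic list shares Cx3cr1 and Siglech. Of 14 T cell markers 0 were called (1 with an unadjusted p under 0.05; median 0.54), and none was at 0 in any mouse. Without ON-CR mouse 5, 1 was called. Their summed values were 400, 455 and 969 in sham mice, against 763, 327 and 2239 in ON-CR mice, the highest again in mouse 6. In ON-CR nerves of this genotype the paper reports more CD3-positive and Iba1-positive cells by staining, and more Tmem119-positive cells by in situ hybridization. Those are measures of cells, whereas the values here are bulk RNA. Limma called 0 of 6 monocyte, 0 of 6 border-associated macrophage, 0 of 6 NK cell and 0 of 7 dendritic cell markers, of which 0, 1, 0 and 1 had an unadjusted p under 0.05. In the other direction, 6 of 8 oligodendrocyte markers fell (median -0.86), against 0 without sham mouse 2 or ON-CR mouse 6, 2 without sham mouse 1 and 5 without any other mouse. Their summed values were 1281810 to 1836260 in sham mice, against 739144, 625296 and 656327 in ON-CR mice 4, 5 and 6. With all 6 mice limma called 0 of 7 astrocyte, 0 of 5 oligodendrocyte precursor and 0 of 5 fibroblast markers. Of these, 4, 3 and 3 had an unadjusted p under 0.05. Among them 3 astrocyte markers were higher after ON-CR, while all precursor and fibroblast markers were lower. The part of RNA from oligodendrocytes or from these other cells in the members' values was not tested.

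Relative to the mean log2 level of the 10 pan-myeloid markers, Vsir was lower in all ON-CR mice than in all sham mice, by 0.59. Cd33 was also lower in all ON-CR mice, by 0.22. Cd47, which many cell types display, was lower by 0.96; its own log2 fold change was -0.12, while the marker mean was 0.84 higher after ON-CR. Each of the 3 gave p = 0.1, the smallest this exact two-sided permutation test allows. Cd274 (0.27, p = 0.4), Havcr2 (0.12, p = 0.6), Sirpa (-0.30, p = 0.4) and Cd200r1 (0.08, p = 0.9) overlapped between the groups in the same exact test. With 1 mouse left out these differences ranged from 0.08 to 0.47 for Cd274, from 0.02 to 0.29 for Havcr2, from -0.50 to -0.09 for Sirpa and from -0.16 to 0.50 for Cd200r1. Relative to homeostatic microglia markers instead, Cd274 (0.86) and Havcr2 (0.71) were higher in all ON-CR mice (p = 0.1 each, exact permutation test). The signs of Sirpa (0.29) and Cd33 (0.37) turned, and Vsir was at -0.00. Cd47 (-0.37, p = 0.4) and Cd200r1 (0.68, p = 0.2) overlapped between the groups in this exact test, and with this reference Vsir, Cd47 and Cd33 no longer separated the groups. For the T cell receptors, in a comparison chosen after the values were seen, Pdcd1 minus the mean log2 level of T cell markers was higher in all ON-CR mice, by 1.27 (p = 0.1, exact permutation test). The values were -1.52, -0.03 and -1.57 in sham mice 1, 2 and 3, against 0.23, 0.42 and 0.04 in ON-CR mice 4, 5 and 6. Sham mouse 2 thus lay just below ON-CR mouse 6. Relative to pan-myeloid markers, the Pdcd1 difference was 1.12 and the groups overlapped (p = 0.2, exact permutation test). The value for Lag3 relative to T cell markers was 0.36, with overlapping groups (p = 0.6, exact permutation test). Relative to pan-myeloid markers, the Lag3 difference was 0.22, and the groups overlapped as well (p = 0.5, exact permutation test).

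**Figure D3:**
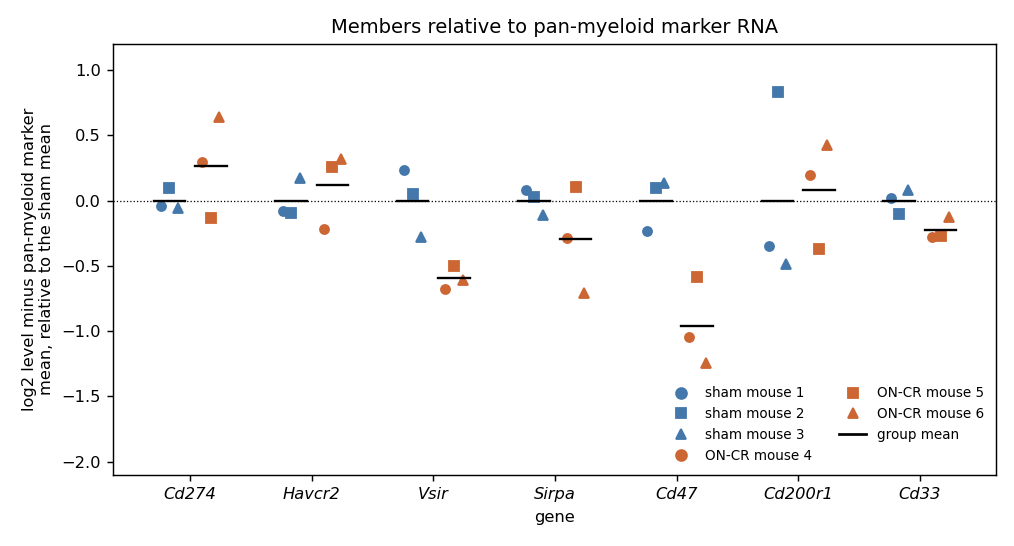
Log2 level of 7 members minus the mean log2 level of 10 pan-myeloid markers in each sham (blue) and ON-CR mouse (orange), drawn relative to the sham mean of each gene, with black bars for group means. Vsir, Cd47 and Cd33 lie lower in every ON-CR mouse than in every sham mouse, and the other 4 overlap.

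The partner genes of these brakes were followed in 7 lists of 87 measured genes. Limma called 13 of 87, all higher after ON-CR. The count changed with single mice: it was 21 without ON-CR mouse 5, 9 without sham mouse 1, 5 without sham mouse 2, 8 without sham mouse 3 and 1 without ON-CR mouse 6, where 12 of the 13 calls were lost. Lgals3 was the call that held in all 6 of these fits.

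Among 14 other ligands of T cell checkpoint and costimulatory receptors, 2 rose (median log2 fold change 0.25). Lgals3, which encodes galectin-3, a ligand of LAG-3 and a marker of activated phagocytes, rose from 332 ± 40.0 to 1871 ± 161 (log2 fold change 2.49, adjusted p = 0.000102, limma). Cd86, the costimulatory ligand of CD28 and CTLA-4, rose from 144 ± 35.5 to 398 ± 149 (1.42, adjusted p = 0.0393, limma), a call that held in 1 of the 6 fits with a mouse left out. The others with the highest means over all 6 mice were Hmgb1 (log2 fold change 0.02) and Lgals9, the TIM-3 ligand galectin-9 (0.41, adjusted p = 0.403 by limma). Pdcd1lg2, which encodes the other PD-1 ligand, had no row.

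Of 14 other T cell receptors 0 were called, and 0 had an unadjusted p under 0.05, although their median log2 fold change was 1.06. Their summed values were 148, 137 and 285 in sham mice, against 275, 136 and 973 in ON-CR mice, so mouse 6 alone stood far above the sham mice. The highest means over all 6 mice were those of Cd244a (28.9 ± 23.9 in sham, 68.9 ± 52.2 after ON-CR) and Cd28 (23.5 ± 14.8 and 64.8 ± 80.7), the latter raised by mouse 6 at 158. In sham mice Cd226 was above both (42.1 ± 9.22 in sham, 35.5 ± 9.18 after ON-CR).

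Other inhibitory receptors of myeloid cells gave 5 calls among 15 genes (median 0.85), and all 15 fitted changes were positive. Fcgr2b, the inhibitory Fc receptor, rose from 420 ± 81.6 to 1220 ± 267 (log2 fold change 1.53, adjusted p = 0.00403, limma). Cd22, a Siglec of B cells that microglia can also express, rose from 19.2 ± 12.8 to 178 ± 41.4 (3.29, adjusted p = 0.00441, limma). Its ON-CR values were 185, 133 and 215, highest in mouse 6, which also had the highest value of the B cell marker Ms4a1 (148, against 0 to 22.3 in the other mice). The part of B cells in this difference was not tested. Cd300a (1.45, adjusted p = 0.00855), a receptor for phospholipids of dying cells, and Siglecf (3.06, adjusted p = 0.0242, limma), a Siglec like Cd33, rose as well, and the fifth, Lilrb4a, encodes an inhibitory receptor of leukocytes (1.70, adjusted p = 0.0303, limma; called in 1 of 6 fits with a mouse left out). Without ON-CR mouse 6 none of these 5 was called, with adjusted p-values of 0.0518 for Fcgr2b and 0.0709 for Cd22. The next by mean over all 6 mice were Cx3cr1, the fractalkine receptor (0.72, adjusted p = 0.128), and Lair1, a collagen receptor (0.85, adjusted p = 0.0667, limma).

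The activating counterparts, receptors and adaptors that drive the cells the brakes restrain, gave 5 calls among 13 genes (median 0.98). Trem2, a lipid receptor of microglia, rose from 582 ± 133 to 1845 ± 402 (1.66, adjusted p = 0.00353, limma). Its adaptor Tyrobp rose from 689 ± 84.2 to 1675 ± 403 (1.26, adjusted p = 0.00636, limma). Cd300c2 (1.58, adjusted p = 0.00733) and the Fc receptor chain Fcer1g (1.34, adjusted p = 0.0088, limma) also rose, and the fifth was Cd200r4, an activating relative of Cd200r1 (2.28, adjusted p = 0.0471, limma), a call that held in 1 of 6 fits with a mouse left out. The others with the highest means over all 6 mice were the Siglec genes Siglech (0.27, adjusted p = 0.612, overlapping groups) and Siglec1 (0.57, adjusted p = 0.274, limma). Without ON-CR mouse 6 none of the 5 genes that rose was called, with an adjusted p of 0.0518 for both Trem2 and Tyrobp. Both lists contain genes of microglia in general, and Tyrobp is also among the pan-myeloid markers above.

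The proteins that carry the brake signal inside the cell gave 0 calls among 11 genes (3 with an unadjusted p under 0.05; median 0.25). The highest means over all 6 mice were those of the phosphatase gene Ptpn11 (1287 ± 199 in sham, 1236 ± 364 after ON-CR) and the adaptor gene Fyb (555 ± 113 and 1293 ± 504, log2 fold change 1.15, adjusted p = 0.0722, limma). In sham nerves Skap2 (762 ± 87.7) and Grb2 (672 ± 32.3) were above Fyb. Among 10 genes for further phagocytosis signals, 4 had an unadjusted p under 0.05, 2 of them higher after ON-CR. The median was -0.05, and 5 of the 10 fitted changes were negative. Limma called 1 of the 10, as higher: Cd24a, which encodes another such brake. It went from 435 ± 57.3 to 734 ± 49.6 (0.76, adjusted p = 0.0237, limma) and kept its call in 3 of 6 fits with a mouse left out. The others with the highest means over all 6 mice, Calr (-0.20) and Mfge8 (-0.14), had adjusted p-values of 0.554 and 0.659 by limma. Of 10 genes that control PD-L1 through interferon and protein stability 0 were called (1 with an unadjusted p under 0.05; median -0.01). Jak1, a kinase gene of interferon signalling, was at 2240 ± 45.9 in sham and 2281 ± 197 after ON-CR.

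**Figure D4:**
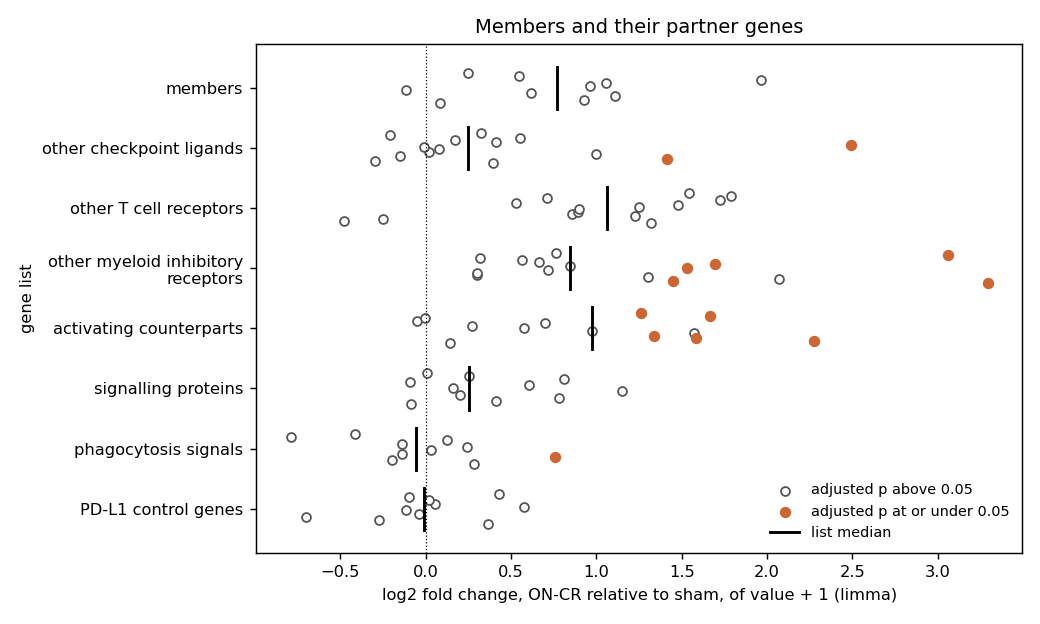
Log2 fold change of value + 1 (ON-CR relative to sham, limma) of the 10 members and of each gene in 7 partner lists, with called genes filled and list medians as black bars. The 13 filled points lie in 4 lists, all at positive values, and no member is filled.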

How the data were processed

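Per the labels and the study's methods, the authors aligned and quantified reads with Illumina DRAGEN, assigned them to mm10 gene models and normalized them in Partek Flow (version 10.0 in the submitters' processing notes) by median normalization. The deposited values are a normalized signal per gene rather than raw counts, so the study's DESeq2 test was not rerun. Dividing by the value of 1 read gave whole reads (within 0.05) for 69.7% to 71.7% of values, too few for a count test; estimated reads served only for depth.

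The whole table was fitted on the log2(value + 1) scale by limma 3.58.1 under R 4.3.3 (trended variances, two-sided, Benjamini-Hochberg over 25755 genes, no filter on low values). This scale understates changes of low genes. The script was tested on simulated data. Ratios to marker means were compared by exact two-sided permutation tests. Per-kilobase levels use exonic lengths of GENCODE M21 (GRCm38). The members and all lists were chosen with earlier results of these data known. Named were all members and, of each partner list, up to 4 called genes by smallest p and the 2 others with the highest mean over all mice. Lilrb4a, Cd200r4, relatives of Sirpa and Cd200r1, and sex-linked genes were picked once values had been seen. Cd226, Skap2, Grb2, Ms4a1 and Jchain were also named outside this rule. The values of 1 gene and 1 motif are not reported here. Alternatives were pseudocounts 0.5 and 2, a filter (a value of at least 10 in 3 libraries), upper-quartile and TMM scaling, equal library totals, array quality weights, a robust fit, and leaving out each mouse. Ratios to T cell markers, receptor to ligand ratios, genes of other brake circuits and marker counts with a mouse left out were added after the values were seen. P-values measure the spread between these mice, since the labels do not give litters or batches.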

Additional observations from a re-analysis of the deposited data

How the results depend on the processing

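Of 140 values of the 10 members under 14 alternatives, 8 passed the threshold and 1 changed sign, Cd47 at 0.013 with equal library totals, a scaling that moved the median log2 fold change of all genes from 0.03 to 0.15. The number of members called by limma went from 0 to 2 with equal library totals, and to 1 both with array quality weights, which gave ON-CR mouse 5 the lowest weight (0.613), and with a robust fit; with 1 mouse left out it ranged from 0 to 4, the highest without ON-CR mouse 5. The cause was not tested. Over the whole table, 540 genes were called with all mice, and 67 (without ON-CR mouse 6) to 854 (without ON-CR mouse 5) with 1 mouse left out; the splits were 250 higher and 290 lower, against 421 and 195 with equal library totals. Partner calls went from 13 to 21 with array quality weights and ranged from 1 to 21 with 1 mouse left out. Without ON-CR mouse 4, 1 partner gene was called as lower. Relative to homeostatic microglia markers in place of pan-myeloid markers, Sirpa (0.29) and Cd33 (0.37) changed sign. The pan-myeloid ratio of Cd200r1 ranged from -0.16 to 0.50 with 1 mouse left out. Leaving out a mouse left 2 in its group, with the spread pooled over both groups. At the depth of these libraries Pdcd1 rested on 6 to 133 reads and Cd200r1 on 13 to 52. No paired analysis was possible because the mice carry different numbers in the groups. The other settings kept the side of the threshold of every member.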

Other observations

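Genes of other signalling circuits of myeloid cells were looked at after the members' values had been seen. These were 16 measured genes of interleukin-10, TGF-beta, adenosine and fractalkine signalling, of related receptors and of intracellular regulators. Limma called 1 of 16, with a median log2 fold change of 0.51, and 6 had an unadjusted p under 0.05, all higher after ON-CR. Gpr84, a receptor for medium-chain fatty acids on activated myeloid cells that promotes inflammation rather than restraining it, rose from 33.0, 27.5 and 38.9 in sham mice to 323, 143 and 326 in ON-CR mice (log2 fold change 2.87, adjusted p = 0.00297, limma). It was again lowest in ON-CR mouse 5. Adora3, an adenosine receptor, was at 1.15 on the log2 scale (adjusted p = 0.0642, limma). Socs3, which limits cytokine signalling, was at 1.09 (adjusted p = 0.0755, limma). All ON-CR values of both genes lay above all sham values, as did those of the receptor gene Lilr4b (2.10, adjusted p = 0.0704, limma). Tgfbr1, a TGF-beta receptor gene, was at 0.53 (adjusted p = 0.085, limma). The ligand Cx3cl1, made by neurons, had a log2 fold change of -0.14 with overlapping groups (adjusted p = 0.759, limma).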
